A study of Mus musculus with 2 samples.

Results

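The 9 genes described here encode a cytokine relay between T cells, natural killer (NK) cells, macrophages and dendritic cells: Ifng, Ifngr1, Ifngr2, Il12b, Il12rb1, Il12rb2, Il15, Il15ra and Il27. They were chosen by symbol and are 9 of the 56941 genes in the count tables. Their levels were read in 2 single-cell RNA sequencing libraries of CD45+ cells from mouse liver metastases, 1 library per group. MC38-LM3b, a liver-metastasizing derivative of the MC38 mouse colon carcinoma line, was injected into the spleen of C57BL/6 mice 6 to 8 weeks old, and liver lesions were taken 2 weeks later. The tumor cells carried a scrambled hairpin (shScramble, Ctrl) or a hairpin against SLAMF3 (shSLAMF3, KD), a SLAM family receptor encoded by Ly9. The hairpins were in the injected tumor cells, and the immune cells of the host carried neither. Each library pooled 3 mice, so the animals cannot be separated, no test between groups was possible, and every interval below is a 95% interval that covers counting error only.

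Interferon-gamma (IFN-gamma) is released by T cells and NK cells and binds a receptor built from the chains IFNGR1 and IFNGR2, which signals through the kinases JAK1 and JAK2. In macrophages and dendritic cells it induces chemokines, guanylate-binding proteins and antigen-processing genes. Activated dendritic cells and macrophages in turn make IL-12, a pair of the p40 chain (Il12b) and the p35 chain (Il12a), which acts on T and NK cells through IL12RB1 and IL12RB2 and drives further IFN-gamma. IL-27 (Il27 with Ebi3) is a related cytokine of myeloid cells. IL-15 is bound by IL15RA on the cell that makes it and is presented to the receptor chains IL2RB and IL2RG of NK and CD8+ T cells, which it keeps alive.

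Depth was measured in UMIs (unique molecular identifiers, each standing for 1 captured RNA molecule). Ctrl had 67207234 UMIs in 10416 cells (median 5175.5 per cell) and KD 64444715 UMIs in 10943 cells (median 4638). After filtering, 9814 and 10185 cells remained, and 27 cell barcodes occurred in both libraries. Ly9 had 12 UMIs in Ctrl and 7 in KD in the tumor-like class, too few to check the knockdown. Clusters were named from marker genes as T cell-like, NK cell-like, macrophage-like and dendritic cell-like, and are called T cells, NK cells, macrophages and dendritic cells for short. These classes held 3357, 168, 3087 and 289 cells in Ctrl and 2055, 217, 2543 and 431 cells in KD. All 8 T cell, 8 NK cell and 10 dendritic cell markers, and 12 of 13 macrophage markers, were higher in their own class than in the other 3. Granulocytes made up 8.55% of filtered cells in Ctrl and 23.5% in KD, and T cells 34.2% and 20.2%. Levels are given in CPM (UMIs of a gene per 1000000 UMIs of the class in that library). The summed level of 10 granulocyte markers was also higher in KD within the other classes. It went from 75.0 to 742 CPM in dendritic cells and from 194 to 838 CPM in macrophages. In T cells it went from 50.1 to 205 CPM, with all 10 genes detected in these 3 classes. In NK cells it went from 65.1 to 258 CPM, with 7 genes detected in Ctrl and 10 in KD. Its part in the differences below was not tested.

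The promoters are shown because interferon signaling acts through short motifs near the starts of its target genes. Of the 6 genes that could be searched, 2 carry such a motif. In the RefSeq table of GRCm38.p6, 6 of the 9 genes had an entry, giving 7 promoters of 250 bases before to 50 bases after the gene start, and Il12rb1, Il15 and Il27 had none. The gamma-activated sequence GAS (TTCNNNGAA, both strands) occurred in 2 of the 7 promoters, those of Ifng and Il12rb2, against 8.298% of all 32851 promoters. The interferon-stimulated response element (GAAA repeated after 2 bases, both strands) occurred in 0 of the 7, against 3.443% of all promoters. In Ifng the motif began at position -249 from the gene start (chr10:118440796-118441095, + strand), and in Il12rb2 at position -123 (chr6:67376139-67376438, - strand). The capitals mark the motif, which describes the letters and not a bound site.
Ifng promoter: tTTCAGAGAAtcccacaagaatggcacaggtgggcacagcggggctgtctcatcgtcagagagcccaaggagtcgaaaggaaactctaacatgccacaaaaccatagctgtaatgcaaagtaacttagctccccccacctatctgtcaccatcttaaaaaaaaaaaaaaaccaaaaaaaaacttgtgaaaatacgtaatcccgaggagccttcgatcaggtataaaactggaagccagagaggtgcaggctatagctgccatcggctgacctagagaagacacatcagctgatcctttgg
Il12rb2 promoter: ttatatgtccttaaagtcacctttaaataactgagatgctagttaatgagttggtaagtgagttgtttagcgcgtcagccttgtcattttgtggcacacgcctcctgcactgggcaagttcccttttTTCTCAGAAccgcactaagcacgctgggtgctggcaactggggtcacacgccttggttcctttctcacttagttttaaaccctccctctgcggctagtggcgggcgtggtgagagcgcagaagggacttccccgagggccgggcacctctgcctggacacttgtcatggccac

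The members were unevenly spread over the 9 classes with at least 50 cells in each library. In both libraries the level of Ifng was highest in T and NK cells, of Il12b in dendritic cells, of Il27 in macrophages and of Il12rb2 in NK cells, although T cells held 68.5% of the Il12rb2 UMIs in Ctrl and 55.2% in KD. Il15 was highest in granulocytes, with 258 CPM (237 to 279) in Ctrl and 177 CPM (168 to 186) in KD. Ifngr1 was found in every class and was highest in NK cells, followed by T cells and dendritic cells in both libraries, with intervals that did not overlap. Ifngr2 was highest in macrophages and nearly absent from T and NK cells. Il12rb1 was first in macrophages in Ctrl, at 17.3 CPM (15.6 to 19.1), with an interval that overlapped those of T cells, NK cells and the tumor-like or fibroblast-like class, and in KD macrophages lay below these 3 classes without overlap. Il15ra was highest in the tumor-like or fibroblast-like class, with 65.5 CPM (54.9 to 77.7) in Ctrl and 34.8 CPM (25.4 to 46.6) in KD.

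**Figure D1:**
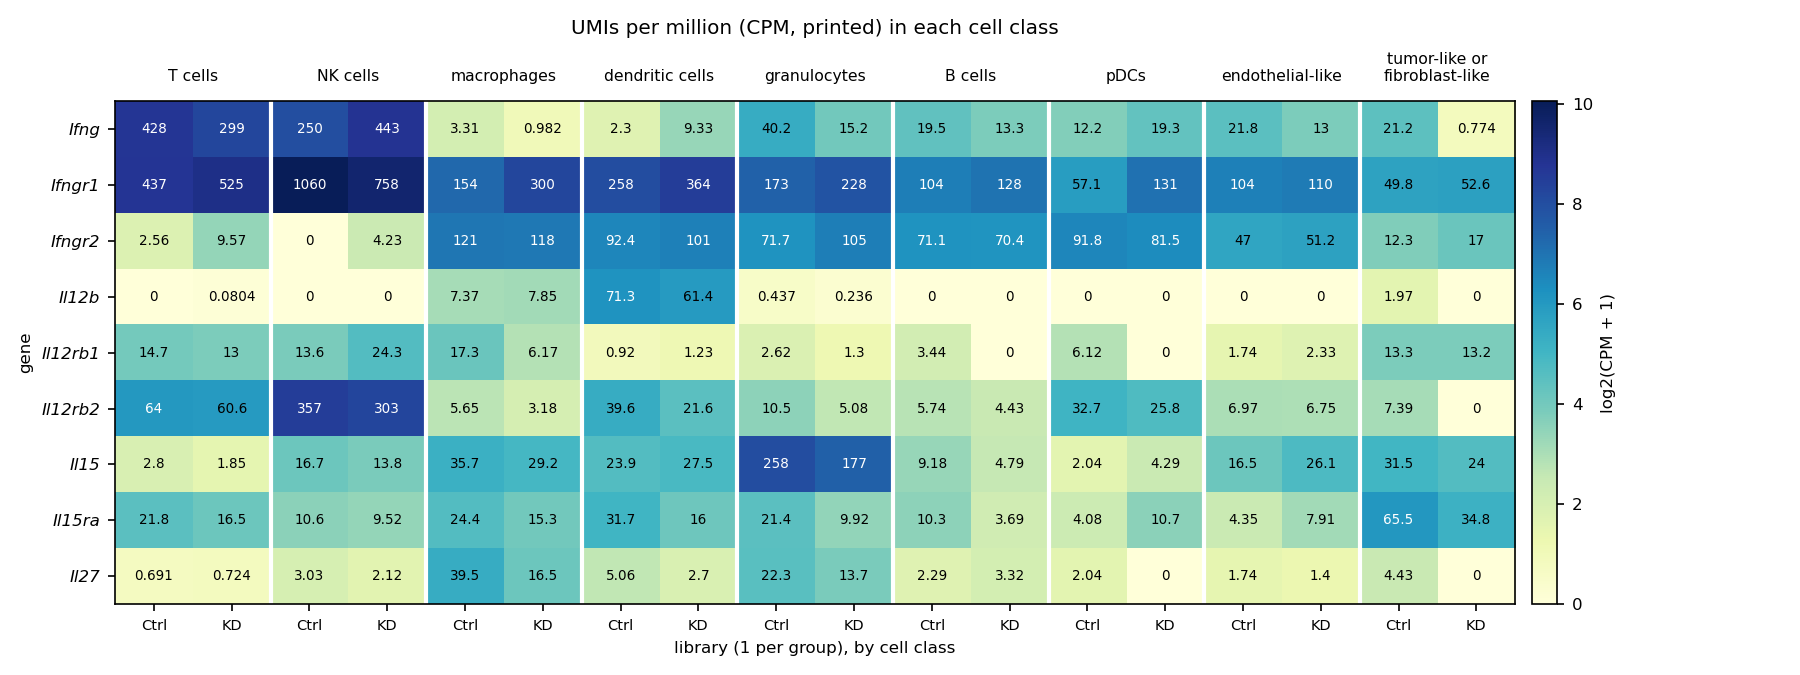
Levels of the 9 genes (vertical axis) in 9 cell classes of the Ctrl and KD libraries (horizontal axis). Printed values are CPM and the color is log2(CPM + 1). Ifng stands out in T and NK cells, Il12b in dendritic cells, and Il15 in granulocytes, and the class with the highest Ifng is T cells in Ctrl (428 CPM) and NK cells in KD (443 CPM).

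A gene was called higher or lower in KD when its CPM differed by at least 1.5-fold, the interval of the log2 ratio lay on that side of 0, and the class held at least 20 of its UMIs over both libraries. In macrophages 5 of the 9 genes were called lower (Ifng, Il12rb1, Il12rb2, Il15ra, Il27), where the same rule called 7.96% of all genes tested lower, and Ifngr1 alone was called higher, where it called 6.34% higher. In dendritic cells 2 of 8 tested genes were called lower (Il12rb2 and Il15ra, background 4.34%) and Ifng was called higher (background 4.04%). In T cells Ifngr2 was called higher and no gene lower among 8 tested, where 7.93% of all genes were called higher and 4.60% lower. In NK cells Ifng was called higher and no gene lower among 5 tested, against 3.14% higher and 5.07% lower. The median log2 ratio of the tested members was -0.68 in macrophages, -0.24 in NK cells, -0.13 in T cells and -0.04 in dendritic cells, beside medians between -0.04 and -0.00 over all genes.

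**Figure D2:**
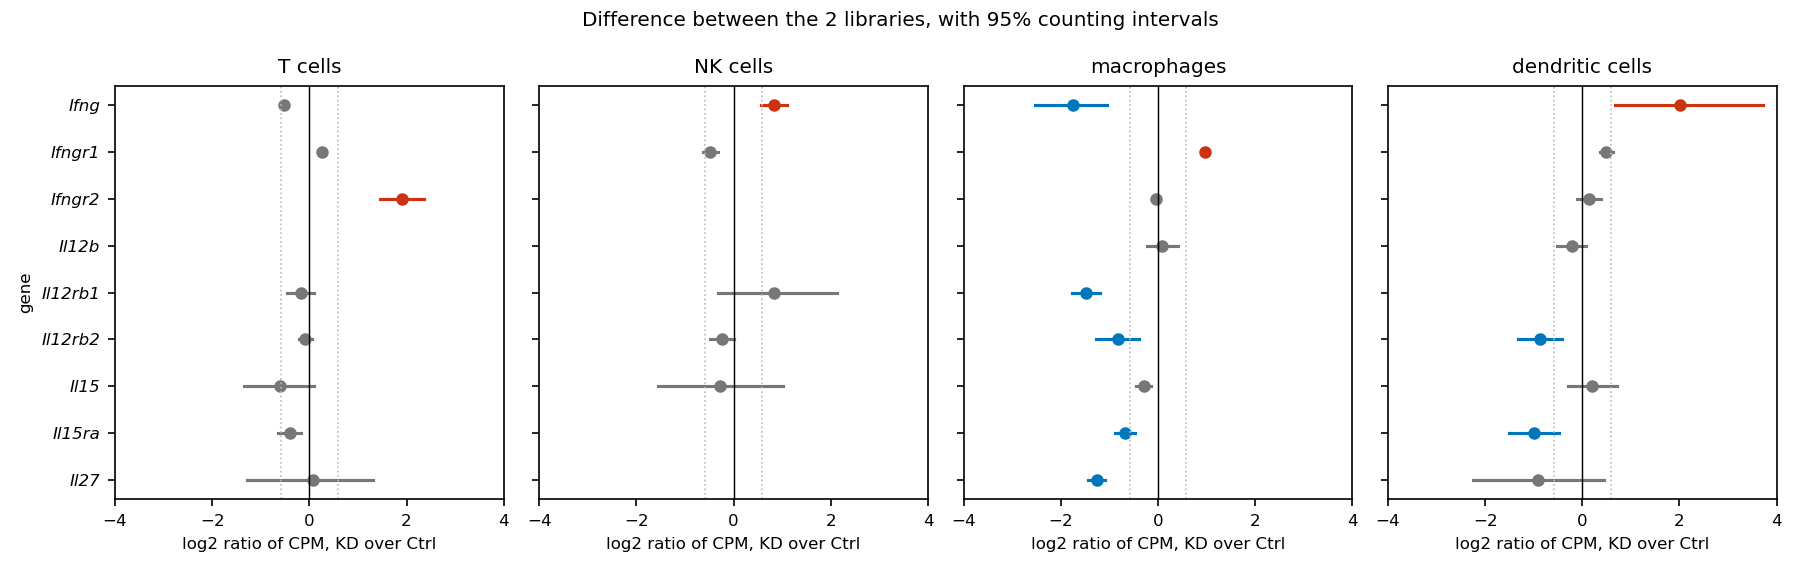
Log2 ratio of CPM, KD over Ctrl (horizontal axis), for each of the 9 genes (vertical axis) in 4 classes, with 95% counting intervals. Red and blue mark genes called higher and lower, gray the others, and dotted lines the 1.5-fold limits. The macrophage panel holds 5 genes on the low side and Ifngr1 at 0.97 on the high side.

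Ifng, the cytokine gene itself, was less abundant in the KD library as a whole and within T cells, and more abundant within NK cells. Over all filtered cells there were 12112 Ifng UMIs in Ctrl and 4964 in KD, or 188 and 80.5 CPM, a log2 ratio of -1.23 (-1.28 to -1.18). T cells held 87.0% of these UMIs in Ctrl and 75.0% in KD, and NK cells 1.36% and 8.44%. The Ctrl level of every class weighted by the share of UMIs that the class had in KD gives 114 CPM, so a log2 difference of -0.73 went with the mix of classes and -0.50 with the levels within them.

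In T cells Ifng had 10532 UMIs in Ctrl (428 CPM, 420 to 436) and 3721 in KD (299 CPM, 290 to 309). The log2 ratio of -0.52 (-0.57 to -0.46), 1.43-fold lower in KD, was short of the 1.5-fold limit. It passed the limit when each cell was thinned to 1500 UMIs (-0.68) and when cells with UMIs of another lineage's markers were left out (-0.85). An Ifng UMI was seen in 56.5% (54.8 to 58.2) of Ctrl T cells and 41.2% (39.1 to 43.4) of KD T cells, at median depths of 6054 and 4848 UMIs, and 30.1% and 21.1% after thinning. B cells, taken as a class that should lack the transcript, had an Ifng UMI in 5.38% of Ctrl and 1.23% of KD cells at median depths of 2615 and 2598 UMIs. The T cell share after thinning to 1500 UMIs was above this unthinned B cell share in both libraries. The 10 T cells with most Ifng held 12.2% of the UMIs in Ctrl and 16.6% in KD.

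The lower Ifng of T cells was not shared by all T cell sub-clusters. Of 7 sub-clusters with at least 50 cells in each library, 2 were exhausted CD8-like. The one led by the granzymes Gzme and Gzmc went from 579 to 345 CPM, a log2 ratio of -0.75 (-0.86 to -0.64). The one led by Gzmk and Ly6c2 went from 394 to 282 CPM (-0.48, interval -0.64 to -0.33). Naive T cells make little IFN-gamma before activation. The larger naive or central memory-like sub-cluster (naive-like for short) went from 122 to 62.9 CPM (-0.95, interval -1.36 to -0.54). A smaller sub-cluster of that name, led by Nrn1 and Plxdc2, had 86 Ctrl and 45 KD cells, below the cell limit. Without the cell with most Ifng in each library it had 83.3 and 120 CPM, a ratio of 0.53 from 41 and 39 UMIs. CD4-like T cells lay above 0 at 281 and 356 CPM (0.34, interval 0.08 to 0.61), and an unnamed sub-cluster had 133 and 131 CPM. Cycling T cells had 390 and 419 CPM (0.10, interval 0.02 to 0.19), but 242 of their 1536 KD UMIs were in 1 cell, and without the cell with most Ifng in each library the ratio was -0.10. Regulatory T cell-like cells had the lowest ratio, -1.97 from 134 and 45 UMIs, but 123 of the 134 Ctrl UMIs were in 1 cell. Without the cell with most Ifng in each library 11 and 28 UMIs were left and the ratio turned to 0.95. A sub-cluster of 6 Ctrl and 96 KD cells, led by Il4 and Zbtb16 and named CD4-like from the marker genes alone, had 369 CPM (310.5 to 435) in KD. With the KD mix of these 7 sub-clusters and the Ctrl levels, T cell Ifng would be 364 CPM, against 435 in Ctrl and 301 in KD, so the log2 difference divides into -0.26 with the mix and -0.28 within sub-clusters.

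**Figure D3:**
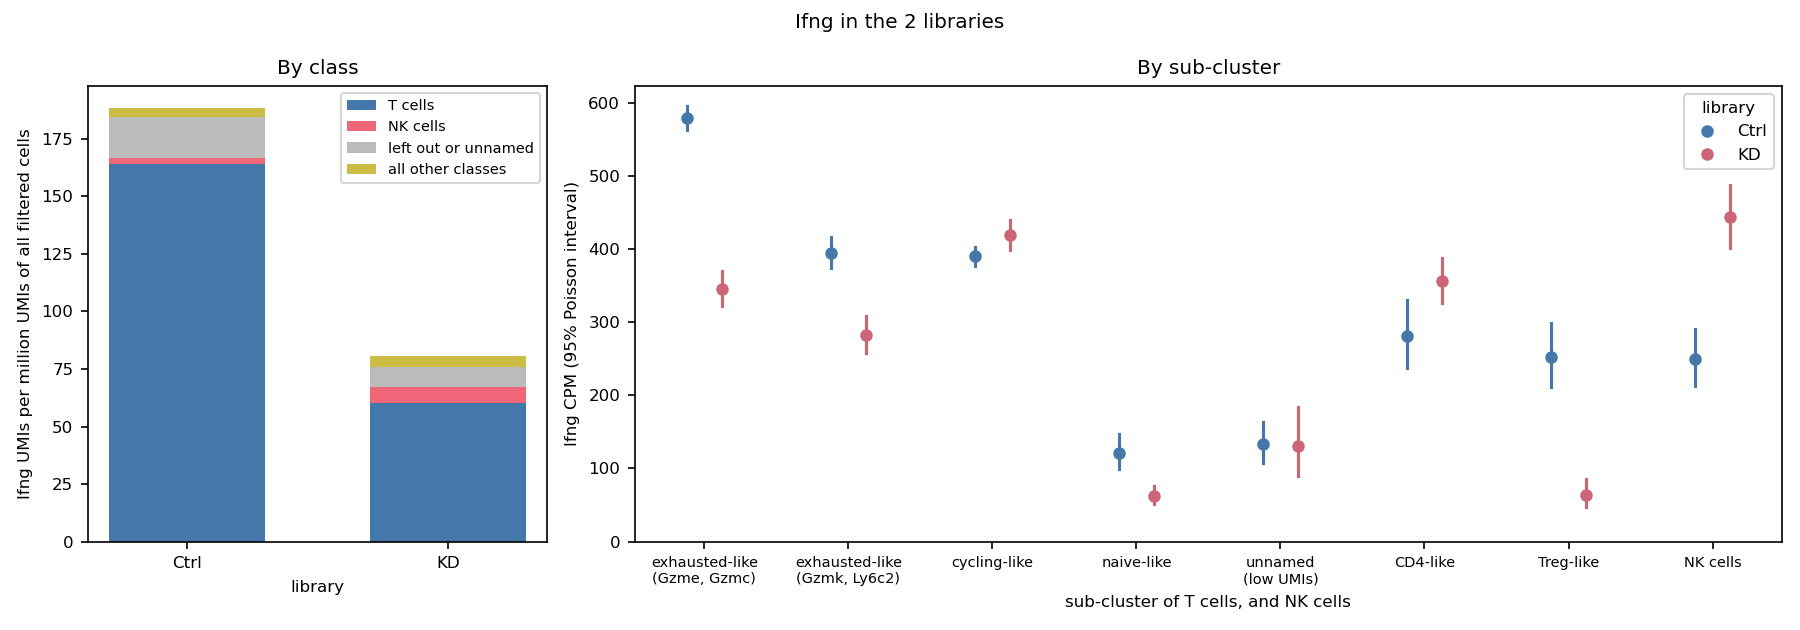
Left, Ifng CPM over all filtered cells in each library (vertical axis), stacked by the class that held them. Right, Ifng CPM with 95% Poisson intervals (vertical axis) in 7 T cell sub-clusters and in NK cells. The bars total 188 in Ctrl and 80.5 in KD, the KD points are lower in the exhausted-like sub-clusters and higher in NK cells, and the Ctrl point of the Treg-like sub-cluster comes mostly from 1 cell.

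NK cells had 165 Ifng UMIs in Ctrl (250 CPM, 213 to 291) and 419 in KD (443 CPM, 402 to 488). The ratio was 1.77-fold higher in KD, a log2 ratio of 0.83 (0.56 to 1.10), and it was 0.74 without the cell with most Ifng UMIs in each library. NK cells thus ranked below T cells in Ctrl and above them in KD, without overlap of the intervals. The share of NK cells with an Ifng UMI was 34.5% (27.4 to 42.2) and 46.5% (39.8 to 53.4), at median depths of 3610.5 and 4146 UMIs. After thinning the shares were 22.6% and 29.3%, with intervals that overlapped. The 10 cells with most Ifng held 41.2% and 51.6% of the UMIs. The summed level of 8 T cell markers in this class was 775 CPM in Ctrl and 1059 CPM in KD, all 8 being detected in both, and its part in the difference was not tested. When NK cells were instead taken from marker UMIs of single cells, which gave 554 cells in each library, the log2 ratio was -0.033 and the call ended.

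In macrophages and dendritic cells Ifng stayed at or below the level of B cells (19.5 and 13.3 CPM) and is read as background. Macrophages had 75 and 21 UMIs (3.31 and 0.98 CPM), which the rule called lower (-1.75, interval -2.53 to -1.04). Their summed T cell markers moved with it, from 34.0 to 14.6 CPM with all 8 detected in both libraries. With sub-clusters led by another lineage kept, the ratio was 0.075, and with classes from marker UMIs it was 0.82. Dendritic cells had 5 and 38 UMIs (2.30 and 9.33 CPM), called higher (2.02, interval 0.67 to 3.72), and 28 of the 38 lay in the cycling sub-cluster, 15 of them in 1 cell. Their summed T cell markers were 81.4 and 104 CPM, all 8 detected in both. That call ended without cells carrying UMIs of another lineage (-0.10).

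Ifngr1, the ligand-binding receptor chain, rose in macrophages. There were 3479 UMIs in Ctrl (154 CPM, 148 to 159) and 6414 in KD (300 CPM, 292 to 307), 1.95-fold higher with a log2 ratio of 0.97 (0.91 to 1.03). The share of macrophages with an Ifngr1 UMI was 58.1% and 78.9% at median depths of 6384 and 7812 UMIs, and 19.7% (18.3 to 21.2) and 33.9% (32.1 to 35.8) after thinning. The difference was found in all 5 sub-clusters with enough cells in both libraries. It was smallest in monocyte-like cells (332 and 416 CPM, log2 ratio 0.33, interval 0.19 to 0.46) and largest in the inflammatory-like sub-cluster led by Il1a, Cxcl1 and Il6 (132 and 320 CPM, log2 ratio 1.27, interval 1.08 to 1.47). A sub-cluster with 9 Ctrl and 361 KD cells, led by Ltc4s and Fn1, had 561 CPM in KD, and without sub-clusters that came mostly from 1 library the class ratio was 0.75.

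In dendritic cells, T cells and NK cells as classes, Ifngr1 differed less between the libraries than in macrophages. Dendritic cells had 560 and 1481 Ifngr1 UMIs (258 and 364 CPM), a log2 ratio of 0.50 (0.36 to 0.64). Type 1 conventional dendritic cell-like cells, which cross-present antigen, had 250 and 461 CPM (0.88, interval 0.58 to 1.19). The 43 Ctrl and 70 KD cells of the cycling sub-cluster had 168 CPM (136 to 206) and 316 CPM (281 to 354), while the type 2-like cells had 369 and 375 CPM (0.03, interval -0.16 to 0.22). T cells had 437 and 525 CPM (0.26, interval 0.22 to 0.31). In the 7 T cell sub-clusters the Ctrl levels with the KD mix give 519 CPM against 520 in KD, so the T cell difference equaled that of the mix. Regulatory T cell-like cells had a level of 658 CPM in Ctrl and 1025 CPM in KD (0.64, interval 0.45 to 0.83), and naive-like cells 781 and 589 CPM (-0.41, interval -0.55 to -0.26). NK cells were on the other side, at 1060 and 758 CPM (-0.48, interval -0.63 to -0.33), which is below the 1.5-fold limit. Ifngr1 was also called higher in plasmacytoid dendritic cells, known for type I interferon. They had 28 and 61 UMIs (57.1 and 131 CPM, log2 ratio 1.20, interval 0.53 to 1.90).

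Ifngr2, the signaling chain of the receptor, did not follow Ifngr1. Macrophages had 2745 and 2518 UMIs, or 121 and 118 CPM, a log2 ratio of -0.04 (-0.12 to 0.04), and the 5 sub-clusters ranged from -0.13 to 0.11. An Ifngr2 difference of 1.5-fold in macrophages therefore lay outside the counting interval. In T cells Ifngr2 was rare and rose from 63 to 119 UMIs, or from 2.56 to 9.57 CPM (log2 ratio 1.90, interval 1.45 to 2.37). Of the KD UMIs, 87 were in naive-like T cells, where the level was 22.5 CPM in Ctrl and 55.3 CPM in KD (1.30, interval 0.58 to 2.08). These cells also made up more of the KD class, 372 cells against 213 in Ctrl. The granulocyte markers in T cells moved with it, as given above. NK cells had 0 and 4 UMIs of Ifngr2, and a count of 0 allows up to 3. Granulocytes had 71.7 and 105 CPM (0.55, interval 0.31 to 0.80).

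**Figure D4:**
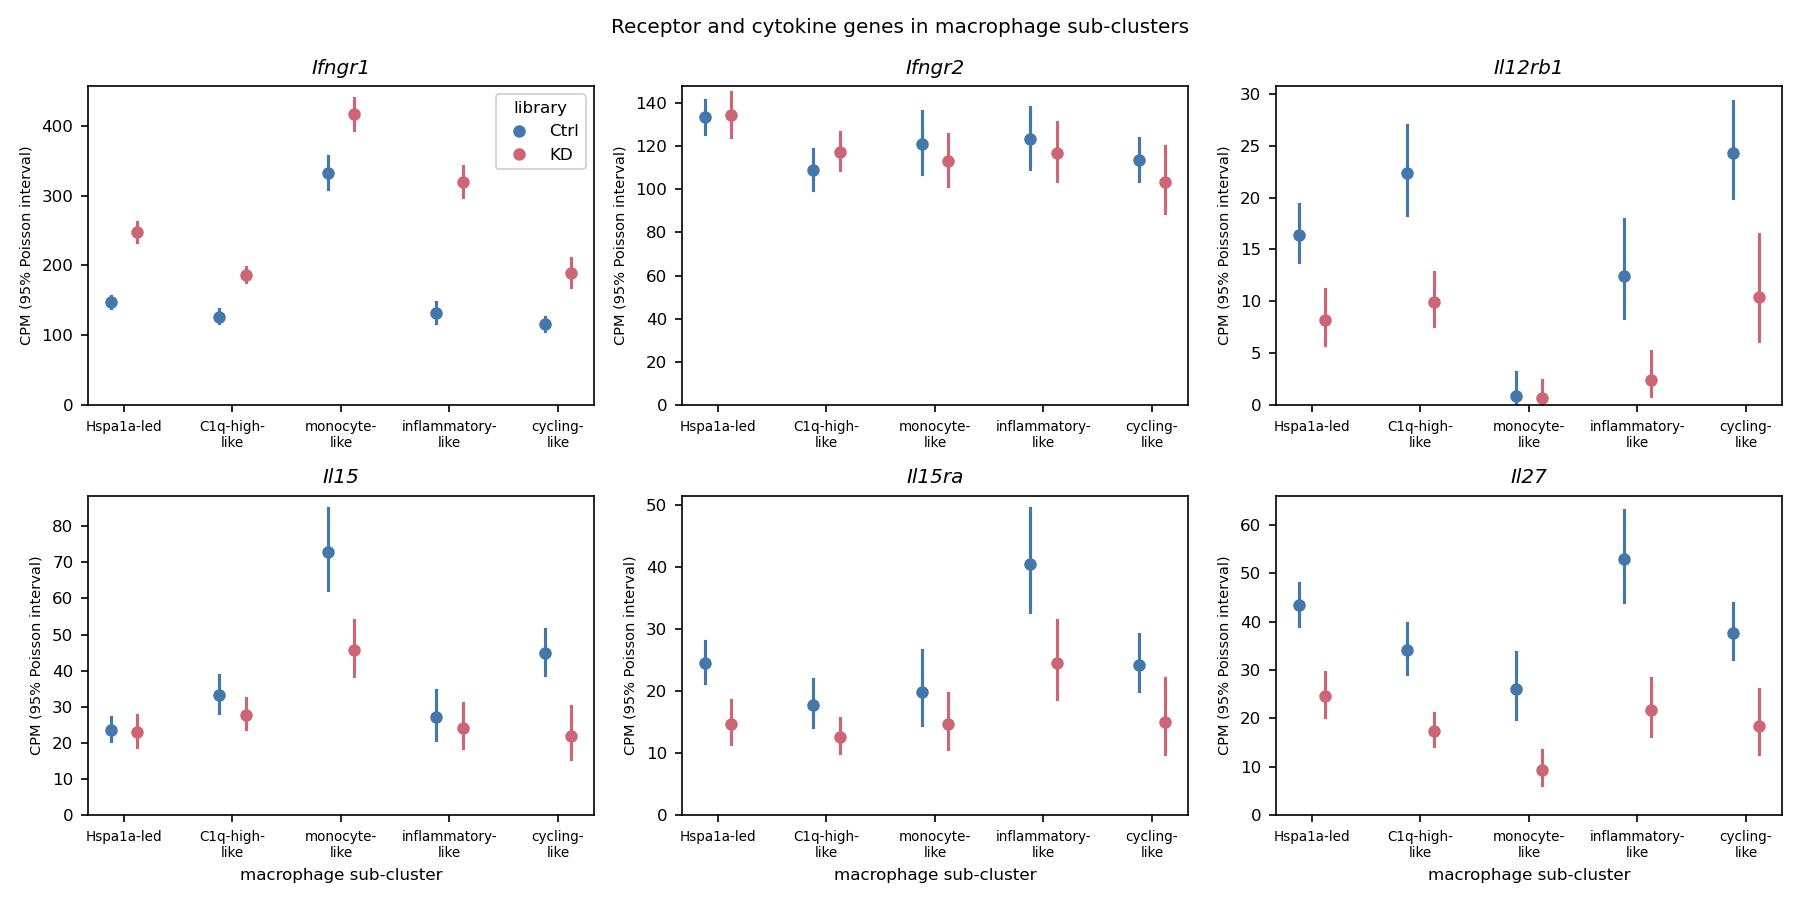
CPM with 95% Poisson intervals (vertical axes) of 6 receptor and cytokine genes in 5 macrophage sub-clusters of the Ctrl and KD libraries (horizontal axes). KD lies above Ctrl for Ifngr1 and below it for Il27 in all 5 sub-clusters, while the Ifngr2 intervals overlap in each.

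The genes that IFN-gamma induces were lower in KD in macrophages and dendritic cells and showed little difference in T and NK cells. Of 20 such genes, 17 were called lower and 0 higher in macrophages, with a median log2 ratio of -1.24. In dendritic cells 15 of 18 tested were lower, with a median of -0.92. The same rule called 7.96% of all genes lower in macrophages and 4.34% in dendritic cells. Nos2, the inducible nitric oxide synthase, went from 166 to 26.3 CPM in macrophages (-2.66, interval -2.79 to -2.53). The guanylate-binding protein genes Gbp4 and Gbp5 had log2 ratios of -1.58 and -1.51, and Cd274, which encodes PD-L1, -0.79 (-0.83 to -0.75). Ciita, the regulator of MHC class II genes, was at -0.08 (-0.17 to 0.01) and was not called. In T cells 1 of 18 tested targets was called lower (Cxcl9, -1.28), beside 4.60% of all genes, and the median was -0.10. In NK cells 2 of 13 were lower (Cxcl9 and Gbp5, beside 5.07%) and Gbp4 was higher (beside 3.14%). Cxcl9 had 16.2 and 6.68 CPM in T cells and 37.8 and 9.52 CPM in NK cells, beside 1573 and 608 CPM in macrophages. The part of RNA from other cells in these values was not tested. The list was chosen with results of these data known, so its direction is not independent evidence.

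The medians of the target genes were below 0 in all 5 macrophage sub-clusters with at least 50 cells in each library and in several other classes. Sub-cluster medians ran from -0.69 in the one led by Hspa1a to -2.00 in inflammatory-like macrophages, the sub-cluster with the highest Ifngr1 ratio. Granulocytes had a median of -1.78 over 19 tested targets, the tumor-like or fibroblast-like class -1.51 over 19, B cells -1.19 over 16 and endothelial-like cells -0.90 over 18. Plasmacytoid dendritic cells, with a median of -0.10 over 12, stood with T and NK cells. Among the signaling genes, the transcription factor genes Irf1 (-1.17) and Irf8 (-0.94) and Socs1, the feedback inhibitor (-1.62), were called lower in macrophages. These 3 were called lower in dendritic cells as well, at -0.98 for Irf1, -0.77 for Irf8 and -1.97 for Socs1. Jak1 and Jak2, the receptor kinases, had log2 ratios of -0.21 and -0.36 in macrophages and were not called.

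**Figure D5:**
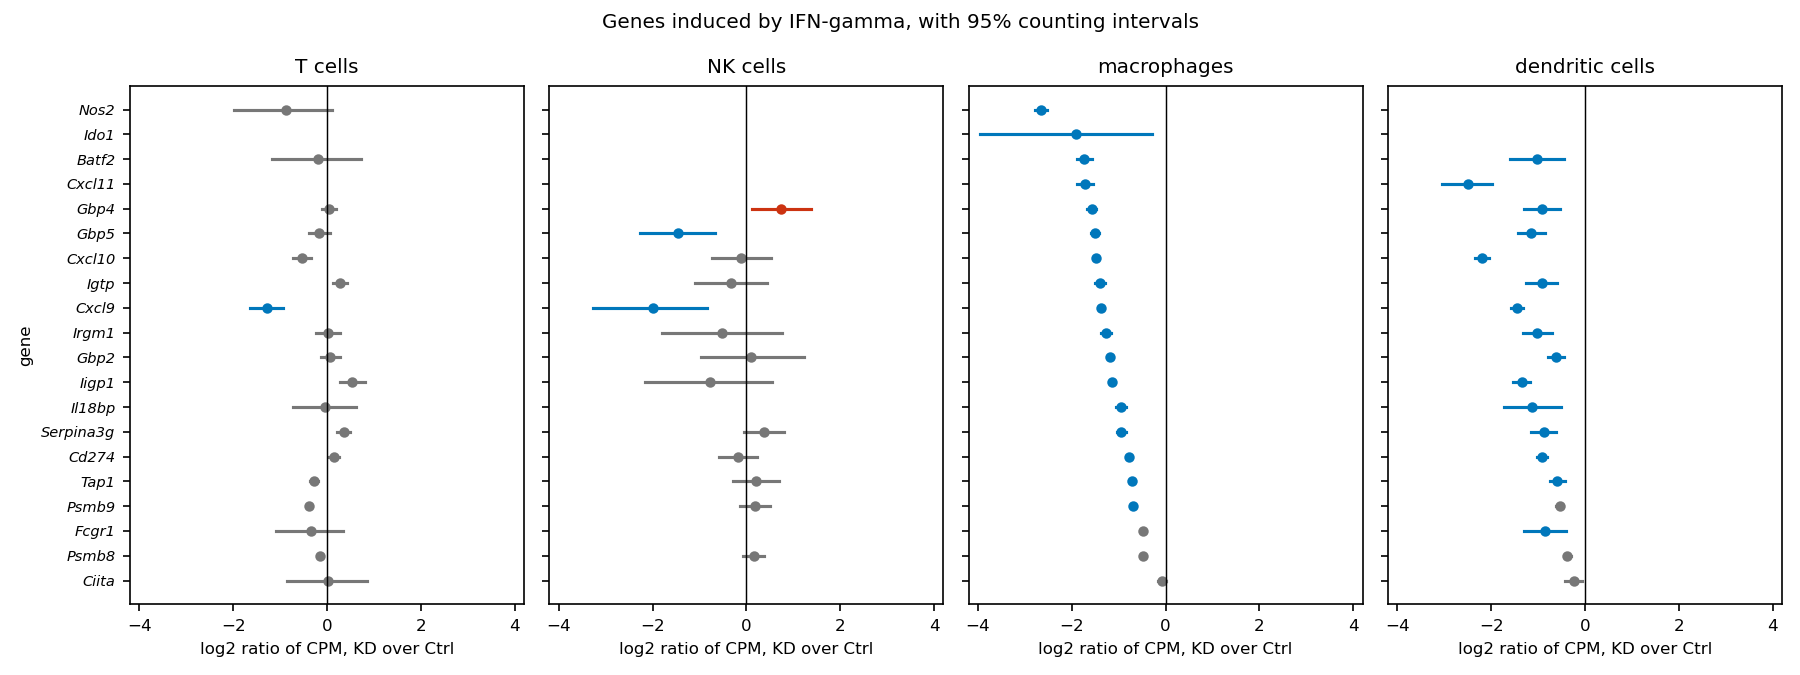
Log2 ratio of CPM, KD over Ctrl (horizontal axis), of 20 IFN-gamma-induced genes (vertical axis) in 4 classes, with 95% counting intervals; red and blue mark genes called higher and lower, and genes with under 20 UMIs are left blank. In macrophages 17 of 20 are called lower, and in T cells 1 of 18, beside 7.96% and 4.60% of all genes.

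Il12b, the p40 chain shared by IL-12 and IL-23, did not differ between the libraries by more than counting error in dendritic cells, the class with its highest level. Dendritic cells held 35.9% of its UMIs in Ctrl and 53.4% in KD, and macrophages 38.7% and 35.9%. Dendritic cells had 155 and 250 UMIs, or 71.3 CPM (60.5 to 83.4) and 61.4 CPM (54.0 to 69.5), a log2 ratio of -0.22 (-0.51 to 0.08). At median depths of 6622 and 8686 UMIs, the transcript came from 25 cells in each library, 8.65% (5.68 to 12.5) and 5.80% (3.79 to 8.44) of the class. T cells, which should lack it, had 0 of 3357 cells in Ctrl and 1 cell (0.05%) in KD. Mature-like dendritic cells, the migratory state led by Fscn1, had the highest level. Their 29 Ctrl cells held 96 UMIs (567 CPM, 460 to 693) and their 34 KD cells 149 UMIs (587 CPM, 496 to 689), 70 of them in 1 cell. Without the cell with most Il12b in each library, 72 and 79 UMIs were left and the ratio of mature-like cells was -0.45. Type 1-like cells had 94.5 and 76.9 CPM (-0.30, interval -0.86 to 0.28), and type 2-like cells 15 and 14 UMIs (16.9 and 7.42 CPM, -1.19, interval -2.35 to -0.04), of which 2 and 1 were left without the cell with most.

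In macrophages Il12b came from very few cells. There were 167 and 168 UMIs (7.37 and 7.85 CPM, log2 ratio 0.09, interval -0.23 to 0.41), and the 10 cells with most held 71.9% and 84.5% of them. In the inflammatory-like sub-cluster 61 of the 62 KD UMIs were in 1 cell, so its ratio of 1.33 rests on that cell. Cycling macrophages had 36 UMIs in 12 Ctrl cells and 1 in KD. When cells with UMIs of another lineage were left out, the class ratio was 0.78 and the gene was called higher. Il12a, the p35 partner, had 43 and 31 UMIs in macrophages and 3 and 7 in dendritic cells, too few to compare.

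Il12rb1, the receptor chain shared by IL-12 and IL-23, fell in macrophages and was not called in T cells. Macrophages had 391 UMIs in Ctrl (17.3 CPM, 15.6 to 19.1) and 132 in KD (6.17 CPM, 5.16 to 7.32), 2.80-fold lower (-1.48, interval -1.78 to -1.20). All 4 sub-clusters with at least 20 UMIs lay below 0, with 16.4 and 8.20 CPM in the Hspa1a-led one at the smaller end and a log2 ratio of -2.37 (-3.93 to -1.08) in the inflammatory-like one. The share of macrophages with a UMI was 11.3% and 4.84%, and 2.36% (1.85 to 2.97) and 0.95% (0.61 to 1.42) after thinning. Granulocytes, taken as the background, had thinned shares of 0.28% and 0.14%, and unthinned shares of 0.72% and 0.46% at median depths of 2186 and 2876 UMIs. T cells had 363 and 162 UMIs (-0.18, interval -0.45 to 0.09) and thinned shares of 1.85% and 1.88%, and NK cells 9 and 23 UMIs (0.84, interval -0.33 to 2.13).

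Il12rb2, the chain that gives IL-12 its own receptor, was highest in NK cells. It had 236 UMIs in Ctrl (357 CPM, 313 to 406) and 286 in KD (303 CPM, 268 to 340), a log2 ratio of -0.24 (-0.49 to 0.02). T cells as a class also hardly differed, at 64.0 and 60.6 CPM (-0.08, interval -0.21 to 0.05), but their sub-clusters did. CD4-like T cells went from 194 to 75.7 CPM (-1.35, interval -1.75 to -0.95), and naive-like T cells from 141 to 57.2 CPM (-1.30, interval -1.71 to -0.90). Regulatory T cell-like cells had 32 and 20 UMIs (-1.08, interval -1.96 to -0.23), and the exhausted-like cells led by Gzmk lay at 61.7 and 69.1 CPM (0.16, interval -0.17 to 0.49). With the KD mix the Ctrl levels give 85.8 CPM, against 64.1 in Ctrl and 52.9 in KD over the 7 sub-clusters, so the mix (0.42) and the levels within sub-clusters (-0.70) had opposite signs. The Il4 and Zbtb16 sub-cluster, left out of that sum, had 332 CPM in KD.

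In the myeloid classes Il12rb2 was lower in KD. Dendritic cells had 86 and 88 UMIs, or 39.6 CPM (31.6 to 48.8) and 21.6 CPM (17.3 to 26.6), a log2 ratio of -0.87 (-1.32 to -0.43). The call was kept under 11 of 15 alternatives. The ratio was -0.50 without cells carrying UMIs of another lineage and -0.41 with classes from marker UMIs of single cells, and was called in neither. Mature-like cells had 160 CPM (105 to 232) in Ctrl and 43.3 CPM (21.6 to 77.5) in KD, from 27 and 11 UMIs. Macrophages had 128 and 68 UMIs (5.65 and 3.18 CPM, -0.83, interval -1.28 to -0.39), a level close to that of B cells (5.74 and 4.43 CPM) and endothelial-like cells (6.97 and 6.75 CPM), and so near background. Among them monocyte-like cells had 35 and 10 UMIs, or 15.5 CPM (10.8 to 21.5) and 3.34 CPM (1.60 to 6.14) (-2.21, interval -3.39 to -1.17).

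Il27, which encodes the p28 chain of IL-27, fell in macrophages, its main source. There were 895 UMIs in Ctrl (39.5 CPM, 37.0 to 42.2) and 353 in KD (16.5 CPM, 14.8 to 18.3), 2.39-fold lower (-1.26, interval -1.44 to -1.08). All 5 sub-clusters were lower, from -0.82 (-1.13 to -0.51) in the Hspa1a-led to -1.48 (-2.18 to -0.81) in the monocyte-like one. The share of macrophages with a UMI was 22.2% and 11.3%, and 6.04% (5.22 to 6.95) and 2.46% (1.89 to 3.15) after thinning, against 0.13% and 0.05% in T cells (0.51% and 0.44% unthinned). Granulocytes had 22.3 and 13.7 CPM (-0.70, interval -1.19 to -0.20), and their interval overlapped that of macrophages in KD but not in Ctrl. Ebi3, the partner chain, had 25.2 and 16.8 CPM in macrophages (-0.58, interval -0.78 to -0.39), just short of the limit, and 21.6 and 23.3 CPM in dendritic cells (0.11, interval -0.41 to 0.65). Il27ra, the receptor chain, had 25.2 and 33.9 CPM in T cells (0.43, interval 0.24 to 0.61).

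Of 12 partner and signaling genes around the IL-12 family, 2 to 4 were called in each of the 4 classes. Over all genes the rule called 3.14% to 7.93% higher and 4.34% to 7.96% lower, depending on the class. In T cells Ebi3 (1.28) and Il6st, the signal chain shared with IL-6 (0.91), were called higher and Il23a, the IL-23 chain (-1.55), lower, of 11 tested. In NK cells Eomes, a transcription factor of NK maturation, went from 298 to 138 CPM (-1.12, interval -1.45 to -0.79), and Il18r1, a receptor chain for IL-18, from 265 to 157 CPM (-0.76, interval -1.08 to -0.43). Stat4, through which IL-12 signals, was at 448 and 422 CPM in NK cells (-0.09, interval -0.31 to 0.14) and at 234 and 300 CPM in T cells (0.35, interval 0.29 to 0.41). In macrophages Stat4 (-1.01), Il23a (-0.79) and Eomes (-1.38, from 22 and 8 UMIs) were called lower and Il27ra (1.08, from 13 and 26 UMIs) higher of 12 tested. Eomes was at 0.97 and 0.37 CPM there, against 128 and 97.9 CPM in T cells. Summed T cell markers in macrophages went from 34.0 to 14.6 CPM and NK cell markers from 3.53 to 2.85 CPM. The part of T and NK cell RNA in these calls was not tested. In dendritic cells Il18, a partner of IL-12 in inducing Ifng, rose from 24 to 147 UMIs, or from 11.0 to 36.1 CPM (1.71, interval 1.08 to 2.40), and Tbx21, which encodes the transcription factor T-bet, was lower (-0.61).

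Il15 showed a class mix and class levels that ran in opposite directions. Over all filtered cells it went from 30.5 to 43.1 CPM (0.50, interval 0.41 to 0.58). Granulocytes, which held 3.56% of all UMIs in Ctrl and 13.7% in KD, held 30.1% and 56.4% of the Il15 UMIs. Within granulocytes the 590 and 1500 UMIs gave 258 and 177 CPM (-0.54, interval -0.68 to -0.40), and the share with a UMI after thinning was 28.7% (25.4 to 32.1) and 20.8% (19.1 to 22.6). With the Ctrl levels and the KD mix the total would be 56.3 CPM, so a log2 difference of 0.88 went with the mix and -0.39 with the levels. Macrophages had 808 and 624 UMIs (35.7 and 29.2 CPM, -0.29, interval -0.44 to -0.14). Among them monocyte-like cells went from 72.9 to 45.7 CPM (-0.67, interval -1.01 to -0.34) and cycling cells from 44.8 to 22.0 CPM (-1.03, interval -1.57 to -0.52). Dendritic cells had 52 and 112 UMIs (0.20, interval -0.29 to 0.70), with 136 and 154 CPM in the mature-like cells.

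Il15ra, the chain that presents IL-15, was lower in KD in both presenting classes. Macrophages had 553 and 327 UMIs, or 24.4 CPM (22.4 to 26.5) and 15.3 CPM (13.7 to 17.0), 1.60-fold lower (-0.68, interval -0.88 to -0.48). The 5 sub-clusters lay between -0.44 and -0.73, and the call ended after thinning (-0.48) and without cells carrying UMIs of another lineage (-0.54). Dendritic cells had 69 and 65 UMIs, or 31.7 and 16.0 CPM (-0.99, interval -1.50 to -0.48). Of these, 47 and 35 were in the mature-like cells, at 278 CPM (204 to 369) and 138 CPM (96.0 to 192). T cells had 21.8 and 16.5 CPM (-0.40, interval -0.64 to -0.17) and NK cells 7 and 9 UMIs. Granulocytes (-1.11, interval -1.63 to -0.57) and the tumor-like or fibroblast-like class (-0.91, interval -1.43 to -0.41) were lower as well.

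The receiving side of IL-15 showed no such shift in NK cells. Il2rb, the shared IL-2 and IL-15 receptor chain, had 744 and 1040 UMIs there (-0.03, interval -0.17 to 0.10), and Il2rg, the common gamma chain, 117 and 166 UMIs (-0.01, interval -0.36 to 0.34). In T cells Il2rb went from 688 to 488 CPM (-0.50, interval -0.54 to -0.45) and was not called. Of 9 genes of the list, 3 were called higher in T cells and 0 lower, beside 7.93% and 4.60% of all genes. They were Bcl2, a survival gene (1.71), Il7r, the IL-7 receptor chain (1.56), and Cish, a STAT5-induced inhibitor (0.76). The T cell class held 213 and 372 naive-like cells, and 86 and 45 cells in the smaller naive or central memory-like sub-cluster. It held 995 and 272 exhausted-like cells led by Gzme and Gzmc. The part of this mix in these values was not tested. Cish (0.85) and Il7r (0.77) were also called higher in NK cells, of 9 tested, beside 3.14% of all genes. In macrophages 5 of 8 tested were called lower, beside 7.96% of all genes, among them Il2rg from 134 to 76.3 CPM (-0.81, interval -0.90 to -0.73). In dendritic cells Il2ra alone was called of 9 tested, from 26 to 6 UMIs (-3.02, interval -4.59 to -1.71), where 4.34% of all genes were called lower.

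Across the 18 points given by 9 classes in both libraries, the genes whose log2(CPM + 1) most resembled each member were listed among 13402 genes. Ifng was closest to Il2rb (Pearson's r = 0.98), Tox (0.97) and Gzmb (0.97), a receptor chain, an exhaustion-linked transcription factor and a granzyme. Il12rb2 was closest to Arsb (0.93), Klrd1 (0.92) and Klrk1 (0.92), the last pair encoding NK receptors. Il27 was closest to Sod2 (0.90), 4930430E12Rik (0.89) and Il1rn (0.88), and Il15 to Maff (0.91), Ndel1 (0.90) and Dusp1 (0.89). Ifngr1 was closest to Prex1 (0.92), Gm33104 (0.91) and Ipcef1 (0.91), and Ifngr2 to Trim25 (0.90) and Csf2rb (0.89). Il12b was closest to Gm28100 (0.95), Tmem150b (0.94) and Tspan33 (0.94), Il15ra to Tpi1 (0.88), Timm8b (0.86) and Eno1 (0.85), and Il12rb1, at lower values, to Arhgap10 (0.81), Higd1a (0.78) and Pdcd6ip (0.75). The points of one library share its depth and free RNA, and these values describe a pattern over classes only.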

How the data were processed

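The 2 libraries were made with 10x 3' single-cell chemistry. Per the labels, the authors ran Cell Ranger 7.1.0 on GRCm39 and deposited raw UMI counts for each barcode, with no normalization. The annotation version was not given in the sources used here. The members and lists were chosen with earlier results of these data known.

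The study's limits were applied: 200 or more genes, and no more than 10% mitochondrial UMIs, 30000 UMIs or 6000 genes, the upper limits being the only doublet control. They left 19999 of 21359 barcodes. Counts were clustered in Seurat 5.3.0 (R 4.3.3) with 2000 variable genes, 20 components and resolution 0.5, then again within lineages, and clusters were named from 3 or more marker genes. Sub-clusters led by another lineage's genes (246 Ctrl and 307 KD cells) were left out, and unnamed clusters (1108 and 451 cells) entered no class. These rules were set after the clusters were seen. Classes need not match those of the study.

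UMIs were summed per class. Poisson, Clopper-Pearson and conditional binomial intervals are exact. Ratios used classes with at least 50 cells in each library, which left out Kupffer-like cells (48 and 82). Thinned shares drew 1500 UMIs per cell, leaving out shallower cells (221 and 84 T cells, 41 and 26 macrophages). Counts of 0 were given an upper limit of 3. The text names all members, listed pathway genes called in a class or needed beside them, and the 3 genes most like each member, 1 of which is not reported here. Genes that lead a cluster, and listed genes that were not called, were named after their values were seen. Alternatives used edgeR 4.0.16 and DESeq2 1.42.0 scaling, other filters and other classes. The ratio rule was tested on simulated data.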

Additional observations from a re-analysis of the deposited data

Results flagged for a closer look

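Ifng had opposite directions in classes under the same contrast. The log2 ratio in NK cells exceeded that in macrophages by 2.58, and that in dendritic cells exceeded that in macrophages by 3.77. With 1 library per group the differences were not tested, and the Ifng of macrophages and dendritic cells lay at or below the level of B cells.

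A cluster left unnamed and used in no class was led by Ifng, Ccl7 and Serpinb9b and held 125 Ctrl and 65 KD cells. Its Ifng level was 485 CPM (449 to 523) in Ctrl and 207 CPM (176 to 242) in KD. Its cells carried markers of 2 lineages, with a UMI of the T cell gene Cd3e in 80.8% and 81.5% and of the macrophage gene Csf1r in 49.6% and 66.2%. Their median depth was 10079 and 11621 UMIs. The part of doublets was not tested.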

How the results depend on the processing

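Over 15 alternatives, 30 ratios of a member in a class gave 446 values, of which 408 lay within the counting interval of the reported value, 33 lay outside it, and 5, all of called ratios, turned direction. Ratios that were not called also crossed 0, such as Il15 in T cells (-1.45 to 0.52) and Il12b in dendritic cells (-0.45 to 0.53). Ifngr2 in T cells, Ifngr1, Il12rb1, Il12rb2, Il15ra and Il27 in macrophages, and Il12rb2 and Il15ra in dendritic cells kept their direction under all 15. The called ratios of Il27 (-1.08 to -1.37) and Il12rb1 (-1.24 to -1.78) in macrophages and of Ifngr2 in T cells (1.07 to 2.43) also stayed past the limit. The Ifng ratio turned with classes from marker UMIs of single cells to -0.033 in NK cells, 0.82 in macrophages and -0.020 in dendritic cells. It turned to -0.10 in dendritic cells without cells carrying UMIs of another lineage, and to 0.075 in macrophages with sub-clusters led by another lineage kept. The cause was not tested.

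With classes from marker UMIs, 0 members were called higher in NK cells, and 2 higher and 2 lower in macrophages. Without cells carrying UMIs of another lineage, which kept 1099 and 488 T cells and 67 and 52 NK cells, 2 members were called lower in T cells, 2 higher in macrophages, and 0 higher and 1 lower in dendritic cells. With thinned cells 1 was lower in T cells, 2 lower in macrophages, and 0 higher and 1 lower in dendritic cells. With at least 100 UMIs 0 were higher in dendritic cells. At 2-fold 0 were higher in NK cells, 0 higher and 3 lower in macrophages, and 0 lower in dendritic cells, and 18 and 10 pathway genes were called lower in macrophages and dendritic cells in place of 29 and 21, and 3 and 0 higher in T and NK cells in place of 6 and 3. The log2 ratio of Ifng over all cells was -1.17 among immune cells alone and -1.09 without granulocytes. TMM and median-of-ratios scaling moved ratios by 0.09 at most. The alternatives that added an unnamed cluster to macrophages or T cells, or left out the cell with most UMIs of a member, were chosen after seeing the data.

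No paired analysis was possible because each group had 1 library, and no library was left out for the same reason. Depth limits the members with under 20 UMIs in a class most, namely Ifngr2, Il12b, Il15ra and Il27 in NK cells, Il12b in T cells and Il12rb1 in dendritic cells.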
